A study of Homo sapiens with 6 samples.

Results

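The miR-378 and miR-33 miRNAs were examined in LX-2 cells, an immortalized line of human hepatic stellate cells, that had been activated with TGF-β1 (10 ng/mL, 24 h by the sample labels). The members were chosen by name: miR-378a-3p, miR-378a-5p, miR-378c and miR-378d, and both arms of miR-33a and of miR-33b, which makes 8 mature miRNAs. Of these, 2 were listed among the 463 mature sequences of the tag tables, and 6 were not listed. In the co-culture group (3 libraries) the activated LX-2 cells grew in the lower chamber of a Transwell with HUC-MSCs, mesenchymal stem cells of the human umbilical cord, in the insert above them. In the single culture group (3 libraries) the activated LX-2 cells grew alone. The 2 groups thus shared the cell line and the TGF-β1 stimulation, LX-2 is a single line, and nothing in the labels says whether the libraries of a group came from separate cultures, so the tests measure the spread between these libraries, which may be technical.

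A miRNA is a short RNA that guides the silencing machinery to messenger RNAs, chiefly through its seed, bases 2 to 8 from its 5′ end. The miR-378a precursor lies in an intron of PPARGC1B, the gene of a transcriptional coactivator of mitochondrial and lipid metabolism, and mice without miR-378a have been described as resistant to diet-induced obesity, with raised oxidative metabolism. MiR-33a and miR-33b lie in introns of SREBF2 and SREBF1, which encode the transcription factors that switch on cholesterol and fatty acid synthesis, and they repress ABCA1, the transporter that exports cholesterol from the cell. Quiescent stellate cells store retinoid in lipid droplets and lose these droplets as they become activated. In this cell type miR-378a-3p has been described as restraining activation, in part through GLI3, a transcription factor of Hedgehog signalling.

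RefSeq sequences were found for 7 of the 8 members, on GRCh38.p14, and miR-378d is named only. They are printed 5′ to 3′ with the seed in capitals, because the seed decides which members belong together. The 3′ end decides whether a short tag can tell miR-378a-3p from miR-378c.
miR-378a-3p: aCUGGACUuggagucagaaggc
miR-378c: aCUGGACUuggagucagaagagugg
miR-378a-5p: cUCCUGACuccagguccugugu
miR-33a-5p: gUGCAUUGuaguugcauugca
miR-33b-5p: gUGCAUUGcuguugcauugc
miR-33a-3p: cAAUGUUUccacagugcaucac
miR-33b-3p: cAGUGCCUcggcagugcagccc

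MiR-378a-3p and miR-378c share a seed and their first 20 bases. They differ within the 22 bases of miR-378a-3p by G21A and C22G, where positions are counted from the 5′ end, the miR-378a-3p base comes first and the miR-378c base last, and miR-378c runs on to 25 nt. MiR-33a-5p and miR-33b-5p share a seed too: 18 of the 20 bases of miR-33b-5p match, and the differences are U9C and A10U with the miR-33a-5p base first. The 3p arms of miR-33a and miR-33b have different seeds and match at 15 of 22 positions.

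The mature sequences listed for miR-378a-3p and miR-378a-5p equal the RefSeq sequences. These are the sequences listed under each name, and the reads themselves were not examined. The 3p arm lies at chr5:149732867-149732888 and the 5p arm at chr5:149732829-149732850, both on the plus strand of GRCh38, in an intron of PPARGC1B (chr5:149730298-149855022 in GENCODE release 29). The hairpin that holds both, MIR378A (chr5:149732825-149732890), is shown with its 2 arms in capitals, since the balance between these arms is measured below.
MIR378A hairpin: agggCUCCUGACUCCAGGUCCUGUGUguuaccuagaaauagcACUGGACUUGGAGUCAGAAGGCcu

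MIR33A lies in an intron of SREBF2 on the plus strand (chr22:41900944-41901012), MIR33B in an intron of SREBF1 on the minus strand (chr17:17813836-17813931), and MIR378C on the minus strand (chr10:130962588-130962668) in no other annotated gene. The seed of miR-378a-3p was held by 1 of the 463 listed sequences and the seed of miR-378a-5p by 1, in each case the member itself. The seeds of the miR-33 members were held by 0 of them. No listed sequence was a longer, shorter or end-trimmed form of a listed member, by the test of nested sequence or a shared run of the first 15 bases. The RefSeq table used here, which is not complete, gives mature sequences for 6 further miR-378 names (miR-378b, f, g, h, i and j), and none of these 6 was listed.

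The libraries differed in more than their group. The co-culture group had 325037, 604418 and 421964 tags per library, against 209043, 43956 and 47528 in the single culture group. Forms of miR-21-5p, the most abundant miRNA, took 75.0 to 81.2% of the tags of the co-culture libraries and 37.1 to 56.4% of those of the single culture libraries. Sequences of 17 to 20 nt took 2.12 to 3.79% of the tags in the co-culture group, against 7.56% in single culture library 1 and 23.4 and 25.7% in single culture libraries 2 and 3. Over the 182 sequences with enough tags to be tested, single culture library 1 correlated more closely with the co-culture libraries (r = 0.970 to 0.981 on the log2 scale) than with single culture libraries 2 and 3 (r = 0.933 and 0.916). The group labels and the depth can therefore not be told apart in these libraries, and results are given with and without the libraries that stand apart. Markers of other cell types were also checked: miR-122, the defining miRNA of hepatocytes, was not listed in either arm, and the epithelial (5 miRNAs), blood cell (6) and muscle (3) lists were not listed at all. The other 2 of the hepatocyte list, miR-192-5p and miR-194-5p, summed to 284 to 322 CPM (tags scaled to a common library size) in the co-culture group and 118 to 270 CPM in the single culture group without overlap, and miR-192-5p, the one tested, had a log2 fold change of 0.45 (edgeR adjusted p = 0.273). The endothelial miR-126 arms summed to 186 to 255 CPM in the co-culture group and 124 to 174 CPM in the single culture group. Of the mesenchymal list 6 of 7 were listed, miR-214-3p being the one that was not, and their sum was 90804 to 112636 CPM in the co-culture group and 36199 to 51832 CPM in the single culture group, mostly the annotated form of miR-21-5p. Of the 3 tested, miR-21-5p passed on the TMM scale (log2 fold change 1.39, edgeR adjusted p = 0.0176). MiR-10a-5p (log2 fold change 0.61, edgeR adjusted p = 0.0609) did not pass. MiR-143-3p went the other way and did not pass either (log2 fold change −1.23, edgeR adjusted p = 0.144), so the list did not rise as a whole. In the hepatocyte, endothelial and mesenchymal sums the groups lay apart, with co-culture higher. So did 36 of the 182 tested sequences on the TMM scale (19.8%). The part of these lists in the results on miR-378a-3p was not tested. HUC-MSCs are mesenchymal as stellate cells are, so no list here could tell their RNA from that of LX-2 cells.

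The first question was which members the cells contained at all. MiR-378a-3p was found in all 6 libraries, as were 143 of the 345 listed sequences of known miRNAs. MiR-378a-5p was found in 1 library, as were 68 of the 345. The other 6 members, miR-378c, miR-378d and the 4 miR-33 arms, were found in none of the tables used here.

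The tables list no count below 2 tags, so a blank can stand for 0 or 1 tag. In CPM of the library size scaled by the trimmed mean of M-values (TMM), 2 tags were worth 7.75, 5.32 and 7.09 CPM in the co-culture libraries, against 6.58, 31.0 and 29.6 CPM in the single culture libraries. The listing minimum thus stood higher in single culture libraries 2 and 3 than in the other 4 libraries. If the 6 unlisted members fell under it, each had at most 1 tag in a library. A count of 1 tag has an exact Poisson upper 95% limit of 5.57 tags, which is 21.6, 14.8 and 19.8 CPM in the co-culture libraries and 18.3, 86.3 and 82.5 CPM in the single culture libraries. These limits cover counting error only. At 1 tag in each library a member would reach 0.423% of the 710 tags of miR-378a-3p in the co-culture group and 0.845% of its 355 tags in the single culture group. At this depth miR-33a and miR-33b, the repressors of ABCA1 that lie within the SREBP genes, were not detectable in either group, and no comparison of them was possible.

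**Figure D1:**
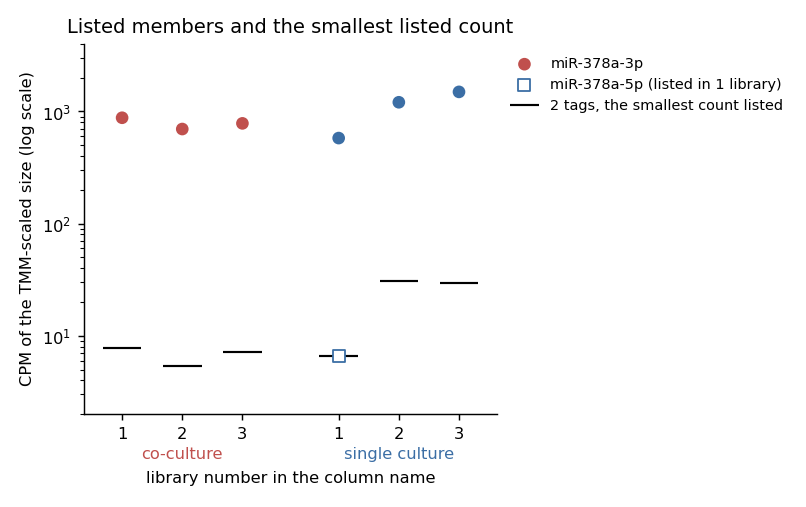
CPM of the TMM-scaled library size on a log axis, for the 3 co-culture and the 3 single culture libraries. Filled points are miR-378a-3p, the open square is the only listed value of miR-378a-5p, and each dash is the worth of 2 tags, the smallest count listed; miR-378a-3p stood 110.5 to 131 times above the dash in the co-culture libraries and 39 to 88 times above it in the single culture libraries.

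MiR-378a-3p, the arm described as restraining stellate cell activation, gave 227, 262 and 221 tags in co-culture, against 176, 78 and 101 tags in single culture. In the library with the fewest tags of it, single culture library 2, the 78 tags had an exact Poisson 95% interval of 61.7 to 97.3, and the 262 tags of co-culture library 2 one of 231 to 296. Its share of all tags was 0.0698, 0.0433 and 0.0524% in the co-culture group and 0.0842, 0.177 and 0.213% in the single culture group. By mean TMM-scaled level it ranked 42nd of the 463 sequences and 29th of the 345 known ones, so it was a moderately abundant miRNA of these cells.

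On the TMM scale miR-378a-3p reached 879, 698 and 784 CPM in the co-culture libraries, against 579, 1209 and 1496 CPM in the single culture libraries. The 3 co-culture libraries lay within the range of the single culture ones: single culture library 1 was below every co-culture library, and libraries 2 and 3 were above every one. The means were 787 ± 90.9 CPM in the co-culture group and 1095 ± 469 CPM in the single culture group (SD, n = 3 each), with coefficients of variation of 11.6% and 42.8%. The spread of the single culture group was thus larger than the difference between the means. This order of the libraries was shared by 6 of the 182 tested sequences (3.30%), a pattern noticed after the values were seen, which are miR-378a-3p, let-7c-5p, miR-134-5p, miR-143-3p, miR-369-3p and 1 sequence named by the authors.

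The comparison of the groups asked whether HUC-MSCs changed the level of the member. In the edgeR quasi-likelihood test across all 182 tested sequences, miR-378a-3p had a log2 fold change, co-culture over single culture, of −0.44 (SE 0.34, 95% interval −1.24 to 0.36) and a Benjamini-Hochberg adjusted p of 0.453. The difference was not larger than the spread between libraries. The interval reaches below −1, and a p above the threshold does not show that the groups were alike. Of the tested sequences 8 were called at an adjusted p under 0.05, in either direction (4.40%), and 46 had an unadjusted p under 0.05 (25.3%). MiR-378a-3p was in neither set, with an unadjusted p of 0.234 in the edgeR test. It ranked 94th of 182 by p, and 42 tested sequences had a lower log2 fold change. The median over all tested sequences was −0.04. DESeq2 gave an adjusted p of 0.552, and limma on the authors' normalized values 0.341 with a pseudocount of 1.

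**Figure D2:**
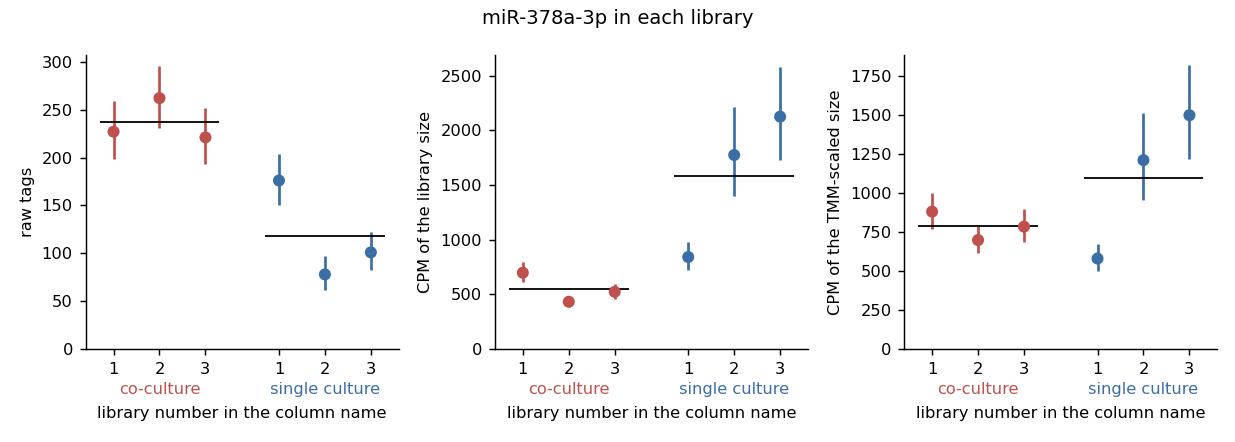
MiR-378a-3p in the 3 co-culture and the 3 single culture libraries as raw tags, as CPM of the library size and as CPM of the TMM-scaled size; bars are exact Poisson 95% intervals of the tags, which cover counting error only, and the horizontal lines are group means. Co-culture is higher in raw tags, single culture is higher in all 3 libraries as CPM of the library size, and on the TMM scale single culture library 1 falls below the 3 co-culture libraries.

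What was taken as the library size decided how large the difference was. As CPM of the whole library size miR-378a-3p reached 698, 433 and 524 CPM in the co-culture libraries (552 ± 135, SD, n = 3), against 842, 1775 and 2125 CPM in the single culture libraries (1580 ± 663, SD, n = 3), with no overlap. On that scale the groups lay apart, with co-culture lower, for 137 of the 182 tested sequences (75.3%). The edgeR log2 fold change scaled by the library size alone was −1.49 (95% interval −2.34 to −0.64) with an adjusted p of 0.00768, but 139 of the 182 tested sequences were called lower in that fit (76.4%) and the median over all of them was −1.11. Relative to that median miR-378a-3p stood at −0.38, and relative to its own median it stood at −0.40 on the TMM scale. A call on the scale of all tags was therefore near the background of this comparison.

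In the authors' own normalized values miR-378a-3p had 261, 170 and 206 in the co-culture libraries and 298, 359 and 405 in the single culture libraries. The groups did not overlap, and the same was true, with co-culture lower, of 52 of the 182 tested sequences (28.6%). On the TMM scale 29 of the 182 lay apart in this direction (15.9%), and miR-378a-3p was not one of them. With the tags of known miRNAs of at least 21 nt other than miR-21-5p as the base, which leaves out both the miR-21-5p forms and the short sequences, miR-378a-3p made up 3.87, 2.90 and 3.57 of every 1000 tags in the co-culture libraries, against 2.66, 6.30 and 7.88 in the single culture libraries. The order of the libraries was the same as on the TMM scale, and the edgeR adjusted p on this base was 0.306.

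Single culture library 1 decided the call. Without it the edgeR log2 fold change of miR-378a-3p was −0.81 (SE 0.15, 95% interval −1.15 to −0.47) with an adjusted p of 0.00440, and 28 of the 172 sequences then tested were called lower (16.3%). Without single culture libraries 2 and 3, which held the fewest tags, the log2 fold change was 0.43 (95% interval 0.06 to 0.81) with an adjusted p of 0.171 by edgeR, where the lone single culture library is assumed to vary like the co-culture ones. The direction thus turned with the libraries that stood for the single culture group. Leaving out any other single library kept the value below 0 and the adjusted p at 0.478 or higher in edgeR. In single culture libraries 2 and 3 the high levels of miR-378a-3p came with the lowest depth and the largest share of 17 to 20 nt sequences, and the part of these in the result was not tested.

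**Figure D3:**
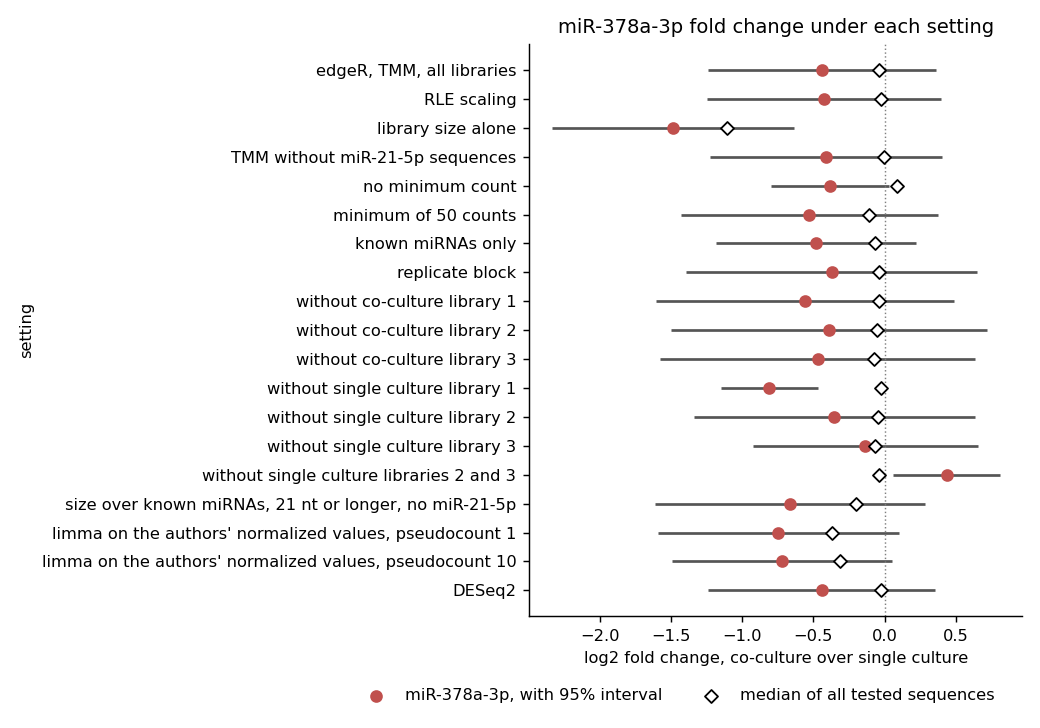
Log2 fold change of miR-378a-3p, co-culture over single culture, under each setting (filled points, with 95% intervals where the test gives one), and the median of all tested sequences in the same setting (open diamonds). The value is −0.44 on the TMM scale with all libraries, −1.49 by library size alone, where the median is −1.11, −0.81 without single culture library 1, and 0.43 without single culture libraries 2 and 3.

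MiR-378a-5p, the other arm of the hairpin, was listed with 2 tags in single culture library 1 (6.58 CPM) and was blank in the 3 co-culture libraries and in single culture libraries 2 and 3. It did not reach the minimum of 10 tags in 3 libraries and was not tested in the comparison. As a share of the tags of both arms it made up 1.12% in single culture library 1 (exact binomial 95% interval 0.136 to 4.0%). If the blanks stood for 1 tag, its share would be 0.439, 0.380 and 0.450% in the co-culture libraries and 1.27 and 0.980% in single culture libraries 2 and 3. With blanks taken as 0, the mean share was 0% in the co-culture group and 0.375% in the single culture group, a difference of −0.37 percentage points that rests on 1 library, so that no test over libraries could bear on it. With blanks taken as 1 tag the difference was −0.70 percentage points (two-sided exact permutation test, p = 0.1, the smallest that 3 against 3 allows), but the share of a blank is then set by the number of 3p tags alone. The tag counts of the 5p arm were thus too few to compare the balance of the arms between the groups.

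Summed over the listed miR-378 members, which are the 2 arms of miR-378a, the family reached 787 ± 90.9 CPM in the co-culture group and 1097 ± 465 CPM in the single culture group (SD, n = 3 each). Tags assigned to an unlisted paralog are not in this sum. The difference of the mean log2 CPM was −0.38 (two-sided exact permutation test, p = 0.4, smallest possible 0.1). The sum is nearly that of miR-378a-3p alone, since the 5p arm added 2 tags, and it moved with the libraries in the same way: the difference was −0.78 without single culture library 1 and −0.10 without single culture library 3. It turned to 0.42 without single culture libraries 2 and 3, a value with no test.

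The miRNAs whose levels followed miR-378a-3p most closely over the 6 libraries were let-7c-5p (Pearson r = 0.968), miR-143-3p (r = 0.944) and miR-134-5p (r = 0.932), measured on log2 of the TMM-scaled CPM plus 10. These are descriptions over 6 libraries that share their depth and scaling, and they carry no test. Let-7c-5p, of the let-7 family whose members differ by few bases so that tags can be split between them, had 527, 503 and 589 CPM in the co-culture libraries, against 369, 1611 and 2088 CPM in the single culture libraries. MiR-143-3p, a miRNA of mesenchymal and smooth muscle cells, had 906, 825 and 847 CPM in the co-culture libraries, against 780, 2417 and 2977 CPM in the single culture libraries. MiR-134-5p, of the imprinted miRNA cluster on chromosome 14, had 287, 274 and 284 CPM in the co-culture libraries, against 273, 542 and 607 CPM in the single culture libraries. Each had its lowest level in single culture library 1 and its highest levels in single culture libraries 2 and 3, as miR-378a-3p did. For miR-134-5p the lowest level was close to that of co-culture library 2 (273 against 274 CPM). The 3 were picked for following miR-378a-3p over these same libraries. A like order of the libraries and a like response to leaving out a library are largely set by that choice. The edgeR adjusted p was 0.212 for let-7c-5p, 0.144 for miR-143-3p and 0.214 for miR-134-5p. Without single culture library 1 the edgeR adjusted p was 2.50e-05 for let-7c-5p, 1.22e-05 for miR-143-3p and 0.00121 for miR-134-5p. The log2 fold changes were −1.80, −1.67 and −1.05 in that fit, which called 28 of 172 sequences lower (16.3%). Let-7c-5p and miR-143-3p each passed in 4 of 18 alternatives, and miR-134-5p in 2. With all libraries, let-7c-5p and miR-143-3p passed by edgeR with no minimum count (adjusted p = 2.07e-06 for each), which called 37 of 463. All 3 passed by edgeR with the library size alone, which called 139 of the 182 lower.

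**Figure D4:**
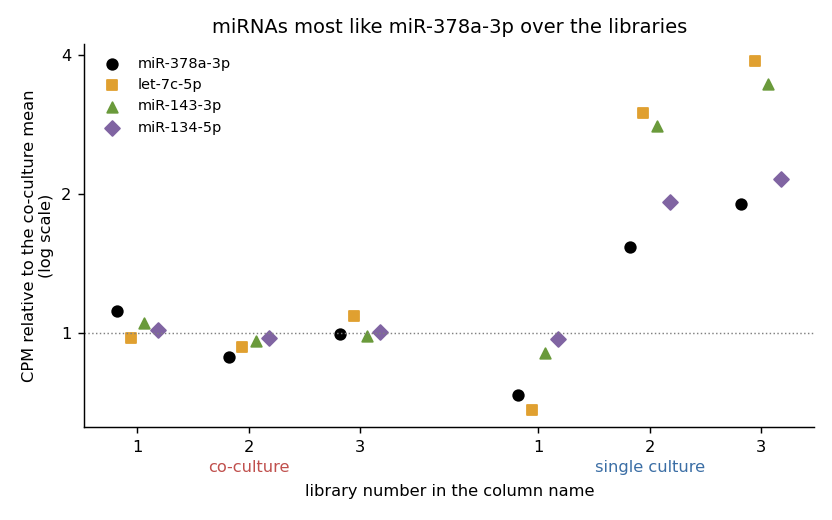
CPM of the TMM-scaled size relative to the mean of the co-culture libraries, on a log axis, for miR-378a-3p and the 3 known miRNAs most correlated with it; each point is 1 library. The co-culture points lie close to 1, single culture library 1 lies at or below it, and single culture libraries 2 and 3 lie above it for all 4 miRNAs.

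Other miRNAs with reported roles in lipid and energy metabolism were read from the same edgeR comparison in 3 lists. In the list for cholesterol efflux (miRNAs reported to repress ABCA1, as miR-33 does), 12 of 14 were listed and 9 were tested. None of the 9 was called in either direction, 2 had an unadjusted p under 0.05, 2 had a positive and 7 a negative log2 fold change, and the median was −0.20, beside −0.04 over all tested sequences. In the list for SREBP and the LDL receptor, 10 of 12 were listed and 9 tested. None was called, 1 had an unadjusted p under 0.05, 2 values were positive and 7 negative, and the median was −0.28. This list shares miR-27a-3p, miR-27b-3p, miR-128-3p, miR-130b-3p and miR-148a-3p with the list for cholesterol efflux, so the counts of these lists overlap. In the list for adipocytes and mitochondrial energy, 13 of 15 were listed and 9 tested. None was called, 3 had an unadjusted p under 0.05, 5 values were positive and 4 negative, and the median was 0.10. DESeq2 called 22 of the 182 (12.1%) and gave no adjusted p for 32 of them, among them miR-10b-5p of the cholesterol efflux list. By DESeq2 1 of the cholesterol efflux list, 1 of the SREBP list and 0 of the energy list passed. With limma (pseudocount 1), which called 11 of the 182 (6.04%), 0 of each passed. Without single culture library 1 edgeR called 43 of the 172 sequences then tested, and 1, 1 and 2 of the lists, in that order. With DESeq2 and in this fit, the call in the first 2 lists was the same miRNA, miR-27b-3p. MiR-122-5p, the liver miRNA that sustains cholesterol synthesis, and miR-223-3p, which acts on cholesterol uptake and synthesis, were among those not listed.

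MiR-27b-3p, which represses ABCA1 and stands in both of the first 2 lists, came nearest to the threshold. It had 5338, 5575 and 5375 CPM in the co-culture libraries (5429 ± 128, SD, n = 3), against 8008, 7639 and 7450 CPM in the single culture libraries (7699 ± 284, SD, n = 3). The groups did not overlap, with co-culture lower, as for 29 of the 182 tested sequences (15.9%). The edgeR log2 fold change of −0.50 (SE 0.11) had an adjusted p of 0.0502, just outside the threshold. MiR-27b-3p passed, in the same direction, in 8 of 18 alternatives. Among them was the library size alone, where 139 of the 182 were called lower. MiR-155-5p, which restrains brown adipocyte differentiation in mice, had 1081, 1036 and 1096 CPM in the co-culture libraries, against 790, 620 and 741 CPM in the single culture libraries. Its groups did not overlap either, with co-culture higher, as for 36 of the 182 tested sequences (19.8%), at a log2 fold change of 0.57 (SE 0.13) and an adjusted p of 0.0595 in edgeR. It passed as higher in 4 of 18 alternatives, among them without single culture library 1 (adjusted p = 0.00651 in edgeR). Scaled by the library size alone it passed as lower (log2 fold change −0.49, edgeR adjusted p = 0.0386).

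MiR-23a-3p, a repressor of glutaminase, averaged 374 ± 31.7 CPM in the co-culture group and 274 ± 28.6 CPM in the single culture group (SD, n = 3 each), with a log2 fold change of 0.42 (SE 0.14, adjusted p = 0.115 by edgeR) that turned to −0.65 with the library size alone and then passed (edgeR adjusted p = 0.00861). MiR-30c-5p, which lowers lipoprotein secretion in mice by way of the triglyceride transfer protein MTTP, averaged 151 ± 14.2 CPM in the co-culture group and 185 ± 7.42 CPM in the single culture group (SD, n = 3 each; log2 fold change −0.28, SE 0.19, edgeR adjusted p = 0.400). MiR-10b-5p, a repressor of ABCA1 in mouse macrophages, had 46.5, 47.9 and 42.5 CPM in the co-culture libraries, against 23 and 29.6 CPM in single culture libraries 1 and 3 and a blank in library 2 (log2 fold change 1.15, SE 0.47, edgeR adjusted p = 0.188). Its value in single culture library 3 was 2 tags, the smallest count listed. With the library size alone its log2 fold change was 0.09. On the TMM scale with all libraries none of these miRNAs passed the threshold.

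**Figure D5:**
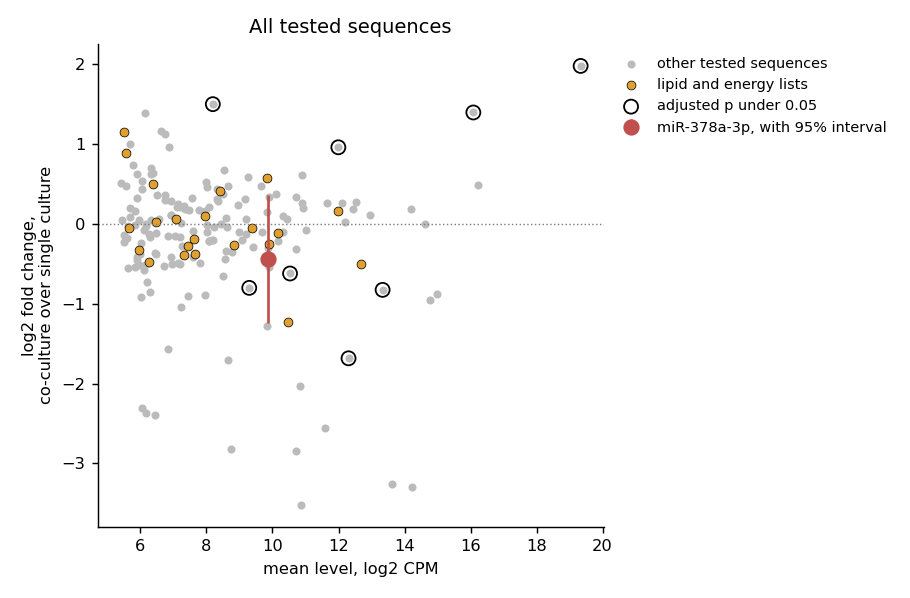
Log2 fold change, co-culture over single culture, against the mean log2 CPM for the 182 tested sequences; filled orange points are members of the 3 lipid and energy lists, open rings mark the 8 sequences with an adjusted p under 0.05, and the red point is miR-378a-3p with its 95% interval. MiR-378a-3p lies at −0.44 with an interval from −1.24 to 0.36, and no list member is ringed.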

How the data were processed

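RNA of LX-2 cells (3 co-culture and 3 single culture libraries, cultured for 48 h) was read as miRNA tags. The authors deposited raw tag counts, which were used for the tests, and normalized tag counts, a score as deposited with an unstated scaling. Bowtie 0.12.2 and the builds hg18 and mm8 stand in the submitters' processing notes. The deposited comparisons (fold changes, p-values and FDR) were not used, except for their group mean columns, which served to assign columns. The labels give 24 h of TGF-β1, whereas the study's methods give 48 h.

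Columns carry a group but no single sample: the authors' mean columns equalled the means of their own group's columns in 519 of 519 compared rows and of the other group's in 14. Columns without a group numbered 0. The 520 rows were merged by mature sequence into 463. edgeR 4.0.16 (R 4.3.3) was run on sequences with 10 or more counts in 3 libraries, with TMM scaling and p-values adjusted over 182 sequences by Benjamini-Hochberg. Depth was 43956 to 604418 tags. On simulated data (20 runs, 60 of 182 sequences changed) 96.0% of 4-fold and 61.6% of 2-fold changes were called. The simulated counts varied independently, without the split between single culture library 1 and libraries 2 and 3. These percentages are taken over all sequences and do not give the power for miR-378a-3p. Because the tables start at 2 tags, a blank was read as 0 or 1 tag and the 3-count floor laid down in the design was not used. Same-group libraries differed by more than sampling noise. Sequences came from RefSeq (GRCh38.p14), and host genes from GENCODE 29.

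The members and the lists were chosen with earlier results of these data known. The 3 lists (cholesterol efflux, SREBP and LDL receptor, adipocyte and mitochondrial energy) were drawn up from general knowledge. Named miRNAs are the members, the 2 of each list with the smallest p (no list member passed), and the 3 known miRNAs most correlated with miR-378a-3p. Alternatives were other scalings, minimum counts and tools (limma 3.58.1, DESeq2 1.42.0), a replicate block, and leaving out libraries.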

Additional observations from a re-analysis of the deposited data

How the results depend on the processing

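The log2 fold change of miR-378a-3p kept its direction and its side of the threshold in 15 of 18 alternatives. It passed with the library size alone (−1.49) and without single culture library 1, and it turned without single culture libraries 2 and 3 (0.43), as did let-7c-5p (0.54), miR-143-3p (0.14) and miR-134-5p (0.040). Leaving out 1 library at a time gave −0.81 to −0.14 for miR-378a-3p. With the library size alone miR-155-5p (−0.49) and miR-23a-3p (−0.65) turned and passed. MiR-27b-3p passed in 8 of 18 alternatives. The cause was not tested. The miR-378 sum (−0.38) was −1.45 with the library size alone, −0.78 to −0.10 with 1 library left out, and 0.42 without single culture libraries 2 and 3. The arm difference (−0.37 percentage points) was −0.70 with blanks as 1 tag and −0.56 to 0 with 1 library left out.

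The number of sequences called, 8 in the edgeR comparison across all sequences, was 140 with the library size alone, 37 with no minimum count, 21 with a minimum of 50 counts, 13 without single culture libraries 2 and 3, 21 with limma and a pseudocount of 10, and 22 with DESeq2, where 32 adjusted p-values were missing. Leaving out 1 library at a time gave 0 to 43, with 0 without co-culture library 2 or 3 (34 and 33 at an unadjusted p under 0.05) and 43 without single culture library 1. The counts called in the cholesterol efflux, SREBP and energy lists, 0 each, moved in 8, 8 and 6 of 18 alternatives, to 8, 9 and 6 with the library size alone and to no more than 1, 1 and 2 in the others.

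Same-numbered libraries did not deviate together (r = −0.36, −0.12 and −0.22 over 182 sequences, and 0 of 6 libraries correlated best with their own number). No pairing by number was seen, but 3 libraries per group are too few to exclude one. With a replicate block edgeR called 0 sequences (30 at an unadjusted p under 0.05), and miR-378a-3p had −0.37 (adjusted p = 0.603).

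Blanks taken as 1 tag gave miR-378a-5p 4 tags in the single culture group instead of 2. Adding near forms gave no value because none was listed. The shallow single culture libraries 2 and 3 limit what can be seen of low miRNAs. The library size over known miRNAs of 21 nt or longer was chosen after seeing the data, as was the sum without single culture libraries 2 and 3.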

Other observations

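For 69 precursor names both arms were listed, and 15 of these had 1000 or more tags over the 6 libraries. In miR-378a the minor arm took 0.187% of the 1067 tags of both arms. The median of the 15 was 0.519%, and 2 of the 15 had a lower share than miR-378a. Blanks were taken as 0 in these shares, and the miR-378a share rests on 2 tags in 1 library. With blanks taken as 1 tag its share would be 0.653% (7 of 1072 tags) beside a median of 0.712%, with 6 of the 15 lower, so its place among the precursors is not settled.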
